A study of Mus musculus with 62 samples.

Results

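Hepcidin and the genes that carry, store, take up and release iron were followed in the liver of mice injected with melanoma cells or mock-injected. The set holds 10 of the 47643 gene symbols in the table, chosen by name: the hepcidin genes Hamp and Hamp2, the iron exporter Slc40a1, transferrin (Trf), the transferrin receptors Tfr2 and Tfrc, the ferritin subunits Fth1 and Ftl1, ceruloplasmin (Cp) and the metalloreductase Steap4. All 10 passed the filter on low values. Livers came from female mice, labelled as 2 months old, in 3 arms: CAC, injected with cachectic melanoma cells; NCAC, injected with melanoma cells of a non-cachectic kind; and Con, mock-injected. They were taken 2, 4, 6 or 8 weeks after injection. Each arm had 5 animals per week, except 7 in CAC at 8 weeks, which makes 62 libraries. The sample labels give the strain as C57BL6/J, whereas the design text names NCI Ath/nude mice, a strain whose athymic animals lack T cells, and the labels do not settle which applies. The extraction protocol also names an LLC injection at a time that is not among the groups. Neither melanoma cell type is described further, and how cachectic each animal was is not among the labels.

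Hepcidin is a peptide hormone made by hepatocytes that binds ferroportin, the product of Slc40a1, and has it degraded, which traps iron in macrophages, hepatocytes and the gut wall. Its gene is switched on by iron through bone morphogenetic proteins and SMADs, and by inflammation through interleukin 6 and STAT3, and it is held down when red cell production needs iron. Ferritin, ferroportin and transferrin receptor 1 are also controlled after transcription by iron regulatory proteins, which bind hairpins called iron-responsive elements (IREs) in their mRNAs, so transcript levels do not give protein levels.

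The mouse has 2 hepcidin genes side by side on the minus strand of chromosome 7, Hamp at chr7:30942368-30944032 and Hamp2 at chr7:30922372-30924681 (mm10, GENCODE M21). Their promoters are shown because the 2 best known inputs to hepcidin meet there. The lines below give the 250 bases before each start in RefSeq (GRCm38.p6), chr7:30944030-30944279 for Hamp and chr7:30924182-30924431 for Hamp2, both minus strand and 5′ to 3′. The Hamp2 window lies inside the GENCODE gene span given above, which reaches further upstream than the RefSeq start. Capitals mark TTCTTGGAA, the STAT3 site, and GGCGCC, the core of the BMP-responsive element.
Hamp: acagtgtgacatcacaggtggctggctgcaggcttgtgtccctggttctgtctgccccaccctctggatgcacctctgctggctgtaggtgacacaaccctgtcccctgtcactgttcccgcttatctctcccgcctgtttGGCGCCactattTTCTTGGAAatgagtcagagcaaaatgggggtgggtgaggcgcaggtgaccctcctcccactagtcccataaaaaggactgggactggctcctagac
Hamp2: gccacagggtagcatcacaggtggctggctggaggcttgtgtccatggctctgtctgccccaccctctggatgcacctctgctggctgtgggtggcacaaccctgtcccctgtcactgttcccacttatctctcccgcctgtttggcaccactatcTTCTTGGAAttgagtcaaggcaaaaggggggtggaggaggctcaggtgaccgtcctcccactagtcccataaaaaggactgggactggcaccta

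The 2 windows were identical at 89.7% of aligned positions. The STAT3 site, at -97 to -89 of Hamp, was the same in Hamp2. The BMP core, at -109 to -104 of Hamp, carried 1 change in Hamp2, G4A, counted from 1 at the 5′ end of the motif with the Hamp base first. Both motifs were searched on both strands in 32851 promoters of the same length, and TTCTTGGAA was found in 120 of them (0.365%) and GGCGCC in 3149 (9.59%). Of the 8 genes of the set with a promoter entry, TTCTTGGAA was in Hamp and Hamp2 and GGCGCC in Hamp and in 1 of 2 entries of Tfrc. Motif matches are descriptions of letters and not of binding.

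The annotated transcripts of Hamp and Hamp2, 410 and 420 bases long, were 92.4% identical with a longest shared run of 87 bases. Reads that fall in shared stretches can come from either gene, and how the deposited values divide them is not stated, so values of Hamp and Hamp2 carry that uncertainty.

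IREs were searched in a single annotated transcript each of Fth1, Ftl1, Slc40a1 and Tfrc, as a loop CAGTGN between paired arms with a bulged C. The other genes of the set were not searched. The sites are shown because their place in the mRNA divides these genes. Each line gives 27 bases of the transcript, 5′ to 3′, with the loop in capitals (mm10, GENCODE M21). The single sites of Fth1 (chr19:9982733-9982759, plus strand), Ftl1 (chr7:45459780-45459806, minus strand) and Slc40a1 (chr1:45925466-45925492, minus strand) lay in the 5′ untranslated region, where a bound regulatory protein blocks translation. The 4 sites found in Tfrc (chr16:32631220-32631246, chr16:32631599-32631625, chr16:32631664-32631690 and chr16:32631711-32631737, plus strand) lay in the 3′ untranslated region, where binding protects the mRNA from decay.
Fth1: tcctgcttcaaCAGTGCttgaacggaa
Ftl1: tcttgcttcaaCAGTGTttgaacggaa
Slc40a1: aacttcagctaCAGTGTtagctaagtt
Tfrc site 1: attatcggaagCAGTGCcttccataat
Tfrc site 2: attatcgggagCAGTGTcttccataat
Tfrc site 3: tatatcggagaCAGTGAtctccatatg
Tfrc site 4: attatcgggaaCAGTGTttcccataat

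Levels are in TPM, a share of all transcripts that sums to the same total in every library and does not reveal sequencing depth. A difference is that of group means of log2(TPM + 1), given ± its standard error. Its p comes from limma, is adjusted over the 12160 genes tested, and makes a call under 0.05. Hepatocyte markers were high in every library, with Alb at 68584 TPM or more. Some libraries stood apart: 9 held at least 100 TPM of the pancreatic transcript Ctrb1 (CAC at 2 weeks 2 and at 6 weeks 1, NCAC at 4 weeks 3, Con at 6 weeks 1 and at 8 weeks 2), and 5 held at least 10 TPM of the muscle transcript Acta1, 12 in either. At 8 weeks the median difference of all genes between CAC and Con was -0.21 as deposited and 0.01 after median-of-ratios rescaling, and at 6 weeks it was -0.12 as deposited, so rescaled values are given where they matter. In whole liver, fewer cells of a type and less RNA per cell cannot be told apart.

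Hamp was not called between the arms at any week, and its spread among the libraries was wide. It encodes the hormone itself. At 2 weeks Hamp stood at 1926, 2452, 2060, 2686 and 2315 TPM in CAC, at 1858, 3270, 3298, 2671 and 2761 TPM in NCAC and at 2536, 4574, 2959, 2537 and 3050 TPM in Con. At 4 weeks it stood at 2212, 1539, 692, 142 and 1709 TPM in CAC, at 1798, 1930, 4591, 3805 and 3239 TPM in NCAC and at 3316, 4098, 3020, 664 and 2156 TPM in Con. The groups overlapped at both weeks, with 4 of 5 CAC livers below the lowest NCAC liver at 4 weeks.

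At 6 weeks Hamp stood at 1331, 4137, 2867, 3452 and 2341 TPM in CAC, at 1175, 230, 1302, 2546 and 2587 TPM in NCAC and at 2899, 2778, 1661, 2549 and 1944 TPM in Con. At 8 weeks the lowest, median and highest were 8.49, 2794 and 4143 TPM in CAC, while NCAC had 2385, 2872, 4898, 2407 and 2164 TPM and Con 1886, 2145, 2064, 3283 and 2284 TPM. One CAC liver of 7 thus lay far below the other 6, whose lowest value was 1005 TPM. The difference of CAC from Con was -1.33 ± 0.81 at 4 weeks (adjusted p = 0.503) and 0.19 ± 0.81 at 6 weeks (adjusted p = 0.896). That from NCAC at 4 weeks was larger, -1.68 ± 0.81 (unadjusted p = 0.0418, adjusted p = 0.461), and was -1.06 ± 1.15 without the libraries holding pancreatic transcripts (adjusted p = 0.791). At 8 weeks the ratio of mean TPM was 1.00. On the log scale the low liver set the sign: the difference was -1.03 ± 0.75 with it and 0.11 ± 0.47 without it (adjusted p = 0.863), or 0.41 ± 0.47 without it and after rescaling.

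**Figure D1:**
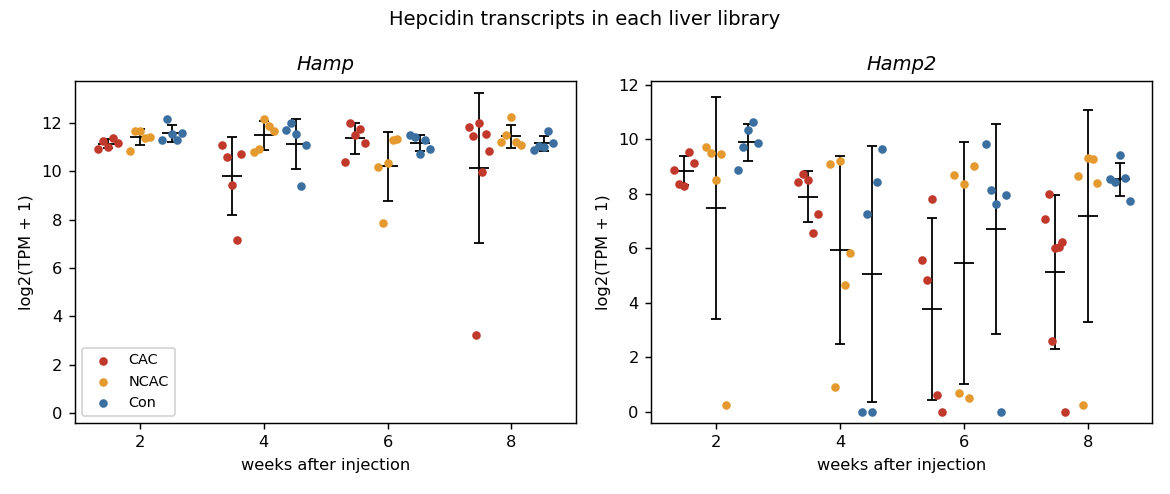
Levels of Hamp and Hamp2 in each liver library as log2(TPM + 1), by week after injection, for CAC, NCAC and Con; points are animals and bars the mean ± SD of the log values. Hamp stays near its group mean in most livers, with single low livers down to 8.49 TPM, whereas 11 libraries lie under 1 TPM of Hamp2 in all 3 arms.

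In 5 libraries Hamp was under 1000 TPM: 8.49 TPM in replicate 3 of CAC at 8 weeks, 142 and 692 TPM in replicates 4 and 3 of CAC at 4 weeks, 230 TPM in replicate 2 of NCAC at 6 weeks and 664 TPM in replicate 4 of Con at 4 weeks. Steap4 was the highest of its group in replicate 3 of CAC at 8 weeks (395 TPM), replicate 4 of CAC at 4 weeks (343 TPM) and replicate 2 of NCAC at 6 weeks (104 TPM). It ranked next to highest in replicate 3 of CAC (187 TPM) and replicate 4 of Con (83.5 TPM) at 4 weeks. Over all 62 libraries the Spearman correlation of Hamp and Steap4 was -0.27. Cp was the lowest of its group in replicate 3 of CAC at 8 and at 4 weeks (391.9 and 299 TPM) and replicate 2 of NCAC at 6 weeks (255 TPM). It was the highest in replicate 4 of CAC (394 TPM) and the median in replicate 4 of Con (239 TPM) at 4 weeks. Socs3, the feedback inhibitor that STAT3 induces, was the lowest of 7 in replicate 3 of CAC at 8 weeks (31.8 TPM) and the highest of 5 in replicate 2 of NCAC at 6 weeks (13.6 TPM). In replicates 4 and 3 of CAC at 4 weeks it ranked 4 and 2 of 5 from the highest (22.9 and 25.9 TPM), and in replicate 4 of Con at 4 weeks 3 of 5 (3.72 TPM). Smad7, Id1 and Bmp6, of the BMP and SMAD input, and Lcn2 were ranked likewise, in the order these libraries are first listed. Ranks from the highest were 7, 5, 2, 3 and 2 for Smad7 and 3, 4, 2, 4 and 5 for Id1. They were 1, 5, 3, 4 and 3 for Bmp6 and 7, 2, 3, 1 and 3 for Lcn2. Red cell markers (summed TPM of 11 genes) reached 16087 TPM in replicate 3 of CAC at 8 weeks, against 58.96 to 2418 TPM in the other 6 CAC livers of that week. Their sums in the other low-Hamp libraries were 1467 and 4181 TPM in CAC at 4 weeks, 6442 TPM in NCAC at 6 weeks and 1780 TPM in Con at 4 weeks. These libraries were singled out after their values were seen, and what sets Hamp in them was not tested.

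Hamp2, whose peptide, unlike that of Hamp, is not known to regulate iron, was either present or nearly absent. It lay under 1 TPM in 11 of the 62 libraries, 5 of them listed at 0, and at 5.09 to 1592 TPM in the other 51, with a median of 362 TPM. The 11 libraries were 3 of 22 in CAC, 5 of 20 in NCAC and 3 of 20 in Con. By week they were 1 of 15 at 2 weeks, 3 of 15 at 4 weeks, 5 of 15 at 6 weeks and 2 of 17 at 8 weeks. Hamp was at 230 to 3452 TPM in the same 11 libraries, so near absence of Hamp2 did not go with absence of Hamp. Hamp2 was at most 0.273% of Hamp in them, and it was above Hamp in 0 libraries.

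Where Hamp2 was present its share of Hamp also varied. The ratio of Hamp2 to Hamp ran from 0.00630 to 0.666 over these 51 libraries.

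At 8 weeks Hamp2 had a lowest, median and highest of 0, 64.5 and 251 TPM in CAC, while NCAC had 396, 0.187, 641, 623 and 332 TPM and Con 366, 342, 685, 381 and 211 TPM. Of the 7 CAC livers 6 lay below the lowest Con liver. The mean was 84.4 ± 86.0 TPM in CAC (SD, n = 7), against 398 ± 261 TPM in NCAC and 397 ± 174 TPM in Con (SD, n = 5 each). The difference from Con was -3.40 ± 1.79 (adjusted p = 0.122), not a call. Its standard error draws on the spread in all 12 groups, including the 11 libraries under 1 TPM. The fit does not model a gene that is either present or nearly absent, so its tests of Hamp2 decide little. At 6 weeks Hamp2 stood at 46.7, 27.6, 222, 0.543 and 0 TPM in CAC, at 408, 0.626, 328, 0.438 and 516 TPM in NCAC and at 913, 278, 195, 0 and 248 TPM in Con, with a difference of CAC from Con of -2.94 ± 1.94 (adjusted p = 0.285). At 4 weeks the difference had the other sign, 2.83 ± 1.94 (adjusted p = 0.568), with 2 Con livers listed at 0 and no CAC liver under 94.4 TPM.

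Slc40a1 (chr1:45908068-45926523), the iron exporter that hepcidin degrades, had the smallest ratio of highest to lowest group mean in the set. It lay between 29.2 and 81.5 TPM over all libraries, with 50.8 ± 8.67 TPM in CAC (SD, n = 22), 50.5 ± 11.2 TPM in NCAC and 53.3 ± 11.9 TPM in Con (SD, n = 20 each). Means at 8 weeks were 50.9 ± 11.2 TPM in CAC (n = 7), 52.6 ± 7.51 TPM in NCAC and 53.0 ± 16.2 TPM in Con (n = 5 each). The difference of CAC from Con was -0.03 ± 0.17 (adjusted p = 0.904), and 0.23 ± 0.16 after rescaling (adjusted p = 0.29). Groups overlapped at every week.

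Trf (chr9:103204001-103230444), the plasma protein that carries iron, rose in CAC livers at 6 and 8 weeks and had the highest group means in TPM of the set. At 6 weeks it stood at 15003, 11190, 14917, 14025 and 10291 TPM in CAC, at 8974, 8724, 9235, 9535 and 8459 TPM in NCAC and at 9290, 6783, 7429, 10519 and 8204 TPM in Con. All 5 CAC livers lay above all NCAC livers, and 4 of 5 above all Con livers. The difference from Con was 0.63 ± 0.11 (adjusted p = 3.72e-05), a ratio of mean TPM of 1.55. Trf at 8 weeks had a lowest, median and highest in CAC of 12252, 14674 and 17167 TPM, while NCAC had 8132, 9655, 10853, 10086 and 10104 TPM and Con 11284, 9401, 9195, 8893 and 9398 TPM. The 7 CAC livers lay above every NCAC and Con liver. The difference of CAC from Con was 0.59 ± 0.10 (adjusted p = 1.07e-05), and that from NCAC 0.57 ± 0.10 (adjusted p = 1.47e-05), which quantile normalization took to 0.27 (adjusted p = 0.107).

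Tfr2 (chr5:137569840-137587481), the hepatocyte receptor that senses iron-loaded transferrin and takes part in switching on hepcidin, rose in CAC livers at 4, 6 and 8 weeks against Con. At 4 weeks it stood at 207, 195, 229, 166 and 214 TPM in CAC, at 135, 154, 161, 151 and 154 TPM in NCAC and at 146, 164, 135, 144 and 132 TPM in Con. CAC livers lay above all livers of both other arms. The difference from Con was 0.48 ± 0.08 (adjusted p = 0.000103) and that from NCAC 0.41 ± 0.08 (adjusted p = 0.00173).

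At 6 weeks Tfr2 stood at 199, 203, 217, 207 and 220 TPM in CAC, at 161, 155, 162, 159 and 154 TPM in NCAC and at 162, 129, 148, 176 and 155 TPM in Con, again without overlap. The lowest, median and highest of CAC at 8 weeks were 194, 204 and 239 TPM, against 159, 192 and 202 TPM in NCAC and 158, 166 and 172 TPM in Con. CAC no longer stood clear of NCAC then, where 4 of 5 livers lay above every Con liver. The difference of CAC from Con was 0.44 ± 0.08 at 6 weeks (adjusted p = 0.00011) and 0.33 ± 0.08 at 8 weeks (adjusted p = 0.00068). The latest of these was lost with the 20 highest genes taken out of the total (0.16, adjusted p = 0.052). That from NCAC at 8 weeks was 0.16 ± 0.08 (adjusted p = 0.0754) as deposited and 0.47 ± 0.07 after rescaling (adjusted p = 1.22e-06).

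**Figure D2:**
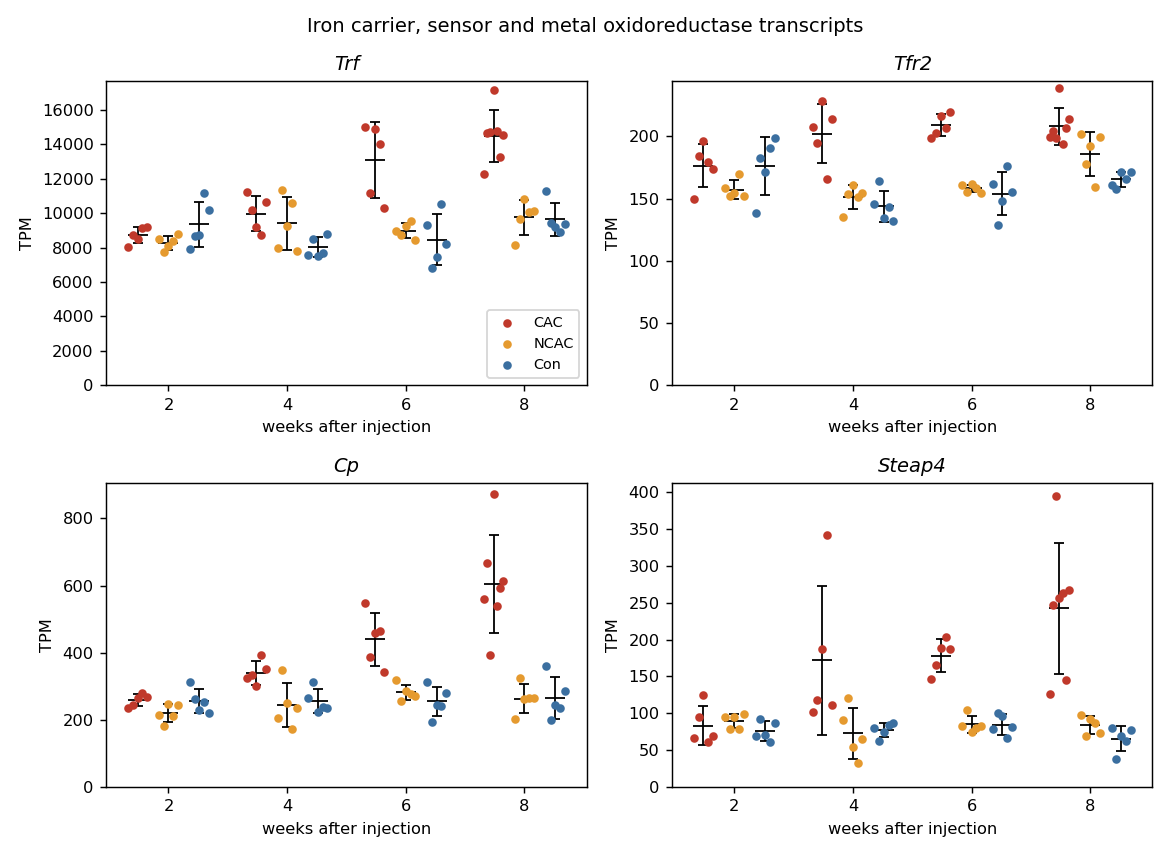
Levels of Trf, Tfr2, Cp and Steap4 in TPM in each liver library, by week after injection, for CAC, NCAC and Con; points are animals and bars the mean ± SD. At 8 weeks CAC livers reach 12252 to 17167 TPM of Trf and 391.9 to 871 TPM of Cp, above all livers of the other arms.

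Tfrc (chr16:32608920-32632794), transferrin receptor 1, which takes up iron-loaded transferrin and is low in hepatocytes at rest, ranged from 3.03 to 26.03 TPM with no call in any comparison. The widest gap was at 2 weeks, with 4.59, 13.9, 6.68, 4.29 and 5.33 TPM in CAC, 22.4, 16.9, 14.5, 7.97 and 26.03 TPM in NCAC and 7.21, 8.77, 8.89, 7.04 and 16.96 TPM in Con. Of the CAC livers 4 lay below every NCAC liver, a difference of -1.24 ± 0.36 (adjusted p = 0.177). It passed the threshold with 2 clock covariates (adjusted p = 0.00213) or with each week fitted alone (adjusted p = 0.0345). The clock covariates came from deviations of clock genes from their group means, so they alter the error of a difference and not its size. At 8 weeks the difference of CAC from Con was 0.49 ± 0.34 (adjusted p = 0.243).

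Both ferritin subunits fell in CAC livers at 8 weeks against Con. Fth1 (chr19:9980598-9985098) encodes the heavy chain, which oxidises iron for storage, and Ftl1 (chr7:45457944-45459884) the light chain, which helps form the iron core. At 8 weeks Ftl1 had a lowest, median and highest of 2371, 2511 and 5575 TPM in CAC, while NCAC had 6693, 4918, 6249, 4734 and 7059 TPM and Con 5506, 7108, 4582, 5883 and 4918 TPM. Of the CAC livers 6 lay below every liver of both other arms, the exception being replicate 3, the liver with 8.49 TPM of Hamp. The difference was -0.85 ± 0.16 from Con (adjusted p = 2.68e-05) and -0.93 ± 0.16 from NCAC (adjusted p = 5.38e-06). After rescaling they were -0.59 ± 0.15 (adjusted p = 0.00195) and -0.63 ± 0.15 (adjusted p = 0.00108).

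Fth1 at 8 weeks had a lowest, median and highest of 2057, 2393 and 4265 TPM in CAC, while NCAC had 2859, 2773, 3298, 3301 and 3054 TPM and Con 3110, 4991, 4375, 3229 and 2977 TPM. Again 6 of 7 CAC livers lay below all livers of both other arms and replicate 3 was the highest, above every NCAC liver. The difference from Con was -0.52 ± 0.14 (adjusted p = 0.00286), and it was no longer called after rescaling (-0.26 ± 0.16, adjusted p = 0.224). That from NCAC was -0.26 ± 0.14 (adjusted p = 0.126), and passed the threshold without replicate 3 of CAC (-0.38 ± 0.13, adjusted p = 0.0133). With all livers it had the opposite sign after rescaling, 0.05, so the lower position of CAC against NCAC rests on the deposited scale.

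At 2, 4 and 6 weeks neither subunit was called in any comparison. At 2 weeks Ftl1 stood at 5508 ± 604 TPM in CAC, against 4694 ± 494 TPM in NCAC and 4449 ± 318 TPM in Con (SD, n = 5 each), with 4 of 5 CAC livers above every Con liver. Per 2 weeks, the linear trend in the CAC minus Con difference was -0.37 ± 0.07 for Ftl1 (adjusted p = 0.00036), and -0.11 ± 0.07 for Fth1 (adjusted p = 0.266). The ratio of Fth1 to Ftl1 in TPM was 0.840 ± 0.118 in CAC at 8 weeks (SD, n = 7), against 0.530 ± 0.111 in NCAC and 0.675 ± 0.167 in Con (SD, n = 5 each), and was not tested.

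**Figure D3:**
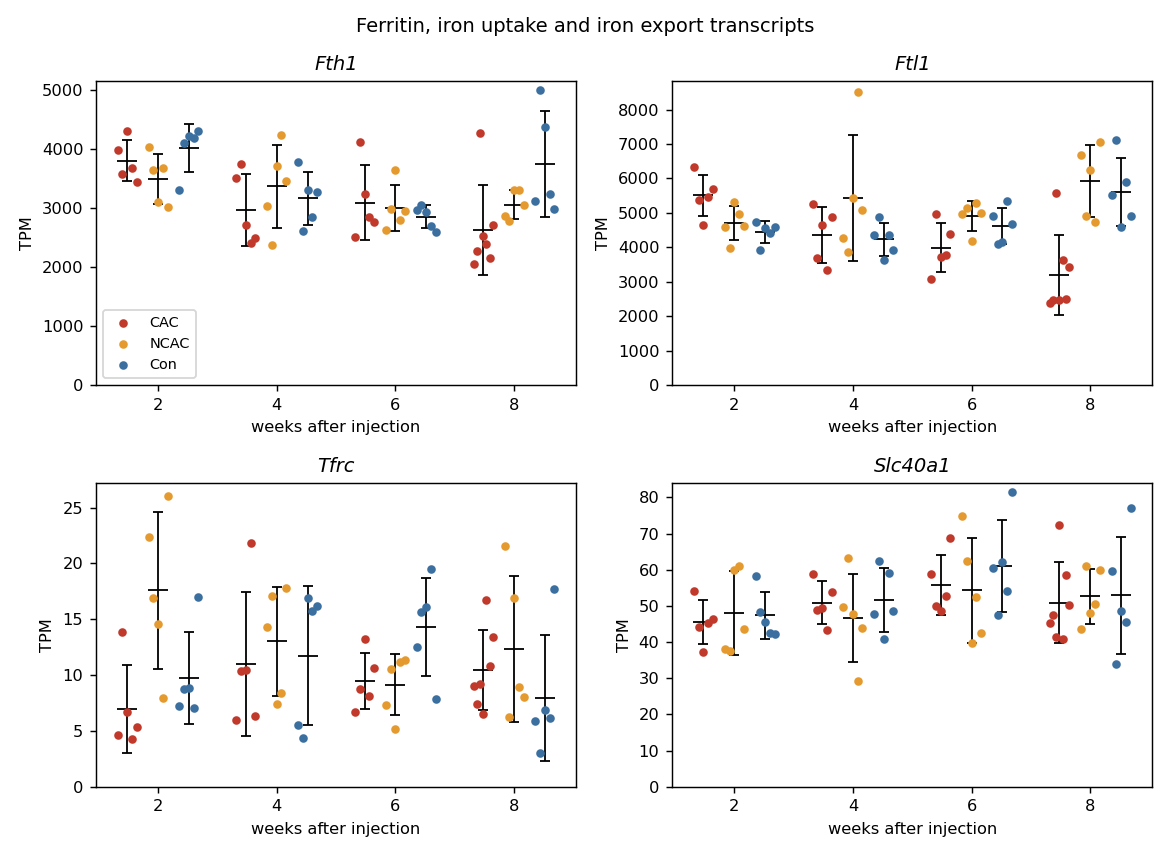
Levels of Fth1, Ftl1, Tfrc and Slc40a1 in TPM in each liver library, by week after injection, for CAC, NCAC and Con; points are animals and bars the mean ± SD. At 8 weeks 6 of 7 CAC livers lie below all NCAC and Con livers for both ferritin subunits, and 1 lies at 5575 TPM of Ftl1.

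Cp (chr3:19957054-20009145), the copper protein of plasma that oxidises iron so that transferrin can bind it, rose in CAC livers at 6 and 8 weeks. At 4 weeks it stood at 324, 333, 299, 394 and 352 TPM in CAC, at 205, 347, 251, 173 and 236 TPM in NCAC and at 266, 313, 224, 239 and 235 TPM in Con, a difference from Con of 0.42 ± 0.16 (adjusted p = 0.188). At 6 weeks it stood at 547, 388, 457, 463 and 342 TPM in CAC, at 318, 255, 284, 277 and 272 TPM in NCAC and at 311, 193, 244, 242 and 280 TPM in Con. CAC livers overlapped with both other arms at 4 weeks and with neither at 6 weeks, when the difference from Con was 0.79 ± 0.16 (adjusted p = 0.000255). At 8 weeks CAC had a lowest, median and highest of 391.9, 593 and 871 TPM, against 203, 264 and 323 TPM in NCAC and 198, 242 and 361 TPM in Con. The lowest CAC liver was replicate 3. The ratio of mean TPM was 2.30 to NCAC and 2.29 to Con, and the difference from NCAC was 1.18 ± 0.14 (adjusted p = 7.57e-09).

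Steap4 (chr5:7960457-7982213), a membrane reductase of iron and copper that inflammatory cytokines induce, rose in CAC livers at 4, 6 and 8 weeks. At 4 weeks it stood at 102, 117, 187, 343 and 112 TPM in CAC, at 90.5, 121, 53.8, 32.2 and 64.9 TPM in NCAC and at 79.7, 61.7, 74.3, 83.5 and 86.3 TPM in Con. CAC livers lay above every Con liver and 2 of 5 above every NCAC liver, and the differences were 0.99 ± 0.26 from Con (adjusted p = 0.0224) and 1.21 ± 0.26 from NCAC (adjusted p = 0.0036). The difference from Con was not called without replicate 3 of CAC (0.92, adjusted p = 0.066) or replicate 2 or 3 of Con (0.92 and 0.98, adjusted p = 0.071 and 0.054), where its size changed little, or without replicate 4 of CAC (0.71, adjusted p = 0.155). That from NCAC was 0.55 ± 0.30 (adjusted p = 0.501) without the libraries holding pancreatic transcripts, which leaves 2 NCAC livers at that week.

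At 6 weeks Steap4 stood at 146, 165, 188, 204 and 188 TPM in CAC, at 83.0, 104, 74.1, 79.4 and 82.4 TPM in NCAC and at 78.3, 101, 95.5, 66.2 and 81.3 TPM in Con. CAC stood clear of both other arms, with differences of 1.08 ± 0.26 from Con (adjusted p = 0.00266) and 1.07 ± 0.26 from NCAC (adjusted p = 0.00281). In CAC at 8 weeks the lowest, median and highest were 125, 256 and 395 TPM, against 68.5, 86.1 and 97.1 TPM in NCAC and 37.9, 68.6 and 79.7 TPM in Con, again without overlap. The ratio of mean TPM was 2.91 to NCAC and 3.72 to Con, and the difference from NCAC was 1.45 ± 0.24 (adjusted p = 3.43e-06).

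Counted over the set, CAC livers against Con had 0 genes called at 2 weeks, where 0.00822% of all tested genes were called, and 0 at an unadjusted p under 0.05. At 4 weeks 2 genes were higher and 0 lower, where 1.91% of all tested genes were called, 1.3% higher and 0.609% lower. At 6 weeks 4 were higher and 0 lower, against 15.3% of all genes called, 5% higher and 10.3% lower. These 608 higher and 1254 lower genes became 1027 and 691 after rescaling. At 8 weeks 4 were higher and 2 lower, against 41.2% of all genes called, 5.87% higher and 35.3% lower. That split of all genes depended on the scaling: 714 were higher and 4291 lower as deposited, 1613 and 1600 after median-of-ratios rescaling, and 1782 and 1633 after quantile normalization. The median difference of the 10 genes at 8 weeks was 0.15, against -0.21 over all tested genes.

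Against NCAC, CAC livers had 0 of the 10 called at 2 weeks (0% of all genes), with 1 at an unadjusted p under 0.05 (Tfrc). At 4 weeks they had 2 higher and 0 lower, against 1.27% of all genes called, 1.11% higher and 0.156% lower. At 6 weeks they had 4 higher and 0 lower, against 12.1% called, 6.55% higher and 5.54% lower. At 8 weeks they had 3 higher and 1 lower, against 48.2% called, 5.09% higher and 43.1% lower. The 619 higher and 5244 lower genes behind these shares became 1474 and 1568 after rescaling. Cp, Steap4 and Trf were the 3 higher genes and Ftl1 the lower one.

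NCAC livers, compared with the same Con livers, had 0 of the 10 genes called at 2, 4, 6 and 8 weeks, where 0%, 0%, 0% and 0.181% of all tested genes were called (at 8 weeks 0.0247% higher and 0.156% lower). At 8 weeks Steap4 differed by 0.38 ± 0.26 between NCAC and Con (adjusted p = 0.585) and Cp by 0.01 ± 0.16 (adjusted p = 0.989). At an unadjusted limma p under 0.05 the counts were 1 at 2 weeks (Tfrc) and 0 at 4, 6 and 8 weeks. Con livers at 8 against 2 weeks also had 0 of the 10 called (0.296% of all genes, 0.271% higher and 0.0247% lower), and 0 at an unadjusted p under 0.05.

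The linear trend in the CAC minus Con difference was called upward for 3 genes and downward for 1, against 15.7% of all genes called, 3.35% upward and 12.3% downward. Those 407 upward and 1499 downward genes became 677 and 650 after rescaling. Per 2 weeks it was 0.38 ± 0.07 for Cp (adjusted p = 7.5e-05), 0.53 ± 0.11 for Steap4 (adjusted p = 0.000734) and 0.24 ± 0.05 for Trf (adjusted p = 0.000488), beside the fall of Ftl1 given above. The trend of Trf was not called after quantile normalization (0.16, adjusted p = 0.0622). The trend in NCAC minus Con was called for 0 of the 10 (0% of all genes), with 1 at an unadjusted p under 0.05 (Tfr2). Between 6 and 8 weeks the step in CAC minus Con was called for 0 of the 10 (0% of all genes), with 4 at an unadjusted p under 0.05 (Tfrc, Fth1, Ftl1 and Steap4). Without replicate 3 of CAC at 8 weeks it was called for Fth1 (-0.74 ± 0.19, adjusted p = 0.0201) and Ftl1 (-0.77 ± 0.21, adjusted p = 0.0233). That liver was the highest of its group for both ferritin subunits. The share of all genes called without it is not given, so whether these calls stand out cannot be told.

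**Figure D4:**
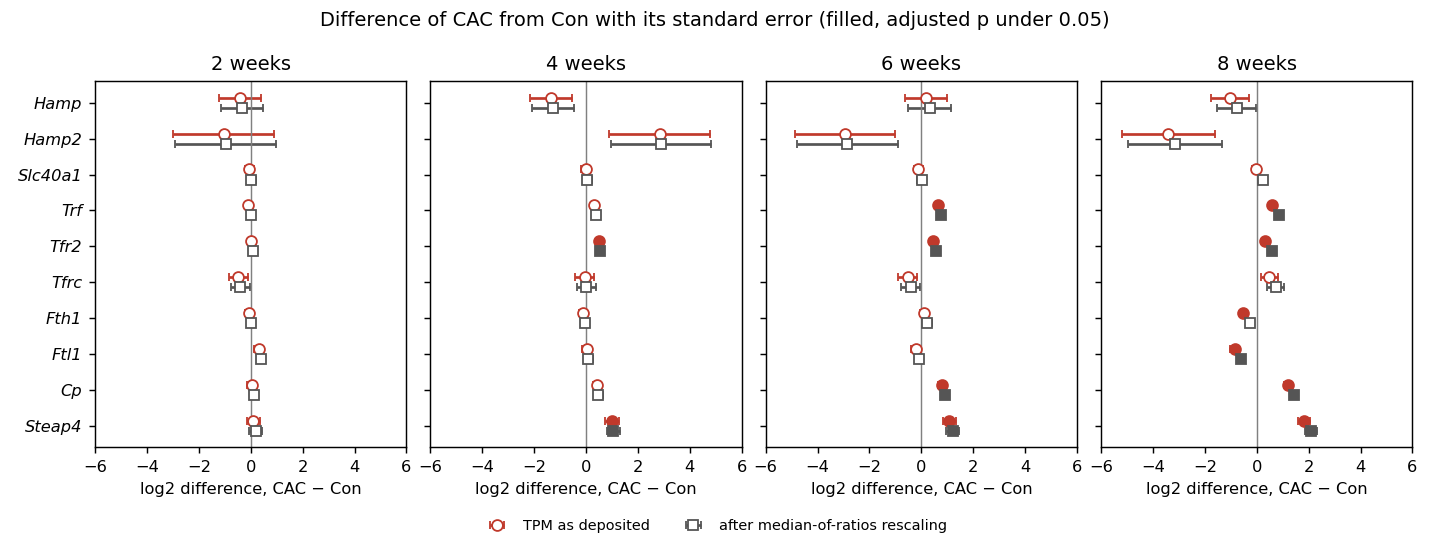
Difference of CAC from Con for each of the 10 genes at 2, 4, 6 and 8 weeks, in log2(TPM + 1) with its standard error, as deposited (circles) and after median-of-ratios rescaling (squares); filled symbols have an adjusted p under 0.05. Steap4 reaches 1.83 and Ftl1 -0.85 at 8 weeks as deposited, and the bars of Hamp2 span several log2 units at every week.

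The order of the 12 group means placed CAC at 8, 6 and 4 weeks at the top for Cp, Steap4 and Trf, and CAC at 6, 8 and 4 weeks for Tfr2. Neighbours in the order differed by more than the larger of their 2 SDs in 3 of 11 steps for Cp: CAC at 8 over CAC at 6 weeks, CAC at 6 over CAC at 4 weeks, and CAC at 4 weeks over NCAC at 6 weeks. They did so in 1 of 11 steps for Hamp2, Tfr2 and Trf and in 0 for the other genes. The ratio of the highest to the lowest group mean in TPM was 17.2 for Hamp2, 3.72 for Steap4, 2.76 for Cp, 2.53 for Tfrc and 2.49 for Hamp. It was 1.85 for Ftl1, 1.81 for Trf, 1.53 for Fth1, 1.45 for Tfr2 and 1.34 for Slc40a1.

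Genes whose 12 group means of log2(TPM + 1) followed each gene closely were found among all tested genes. Steap4 was followed by Pros1 and Il1r1 (Pearson r 0.99 each), Cp by Syt12 and Tifa (0.98 each), Trf by Ocstamp (0.97) and Slc13a3 (0.96), and Tfr2 by Ell and Slc39a1 (0.96 each). Fth1 was followed by Atp5d and Mvb12a (0.98 each), and Ftl1 by Guk1 (0.98) and Cox7a2 (0.97). The closest were less alike for Slc40a1 (Spred1, 0.92 and Mbtps2, 0.91), Tfrc (Slc25a51, 0.91), Hamp (Tubg1, 0.87 and Thop1, 0.86) and Hamp2 (Ftcd, 0.86 and Elmo3, 0.85). These were picked from 12160 genes over 12 points that share libraries, and are a description.

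The cytokine input to hepcidin was higher in CAC livers at 8 weeks for 5 of 12 tested genes and lower for 2 (6 and 2 after rescaling). Of all tested genes 5.87% were higher and 35.3% lower. The list median was 0.35 against -0.21 over all tested genes. Socs3 stood at 44.5 ± 10.1 TPM in CAC (SD, n = 7), 7.23 ± 3.31 TPM in NCAC and 6.51 ± 2.03 TPM in Con (n = 5 each) at 8 weeks. It was called from 4 weeks on, with a difference of 2.46 at 4 weeks (adjusted p = 5.55e-08). Stat3, the transcription factor that carries the interleukin 6 signal to the hepcidin promoter, rose by 0.85 ± 0.13 (adjusted p = 6.08e-07), and Il6st, the shared receptor subunit, by 0.85 ± 0.18 (adjusted p = 0.000127). Cebpa, a liver transcription factor that activates Hamp, fell by 1.12 ± 0.22 (adjusted p = 5.94e-05), and the kinase Tyk2 fell by 0.81 ± 0.20 (adjusted p = 0.00103). Il6 itself reached at most 0.287 TPM in any liver library. Counts in this list were 2 higher and 0 lower at 4 weeks, beside 1.3% and 0.609% of all tested genes. They were 4 higher and 1 lower at 6 weeks, beside 5% and 10.3%.

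The BMP and SMAD input was mixed, with 2 of 23 tested genes higher and 9 lower at 8 weeks. Of all tested genes 5.87% were higher and 35.3% lower, so these counts lie near the shares over all genes. The list median was -0.19, against -0.21 over all tested genes, and after rescaling 4 were higher and 2 lower. Bmp6, the iron-responsive ligand made by sinusoidal endothelium, fell by 0.59 ± 0.12 (adjusted p = 0.000116), at 0.476 ± 0.118 TPM in CAC, 1.49 ± 0.433 TPM in NCAC and 1.24 ± 0.320 TPM in Con. CAC livers lay at 0.636 TPM or less and Con livers at 0.871 TPM or more, though at such levels the log2(TPM + 1) scale understates the change. Smad9 fell by 0.96 ± 0.26 (adjusted p = 0.00262), and Bmp6 and Smad9 were the 2 genes still lower after rescaling. Smad1, which relays the signal, rose by 0.39 ± 0.09 (adjusted p = 0.000687), and the receptor Bmpr2 by 0.41 ± 0.16 (adjusted p = 0.0302), a call lost without the libraries holding pancreatic transcripts (0.17, adjusted p = 0.398). The target gene Id2 fell by 0.97 ± 0.30 (adjusted p = 0.00818), and was not called after rescaling (-0.71, adjusted p = 0.0536). Tmprss6, the protease that restrains hepcidin, named here after its value was seen, fell by 0.35 ± 0.11 (adjusted p = 0.0085) and stood at -0.09 after rescaling (adjusted p = 0.448).

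Of the other iron transport and storage genes, 6 of 18 tested were higher and 6 lower at 8 weeks, and 6 and 2 after rescaling (list median -0.12 against -0.21). The shares over all tested genes as deposited were 5.87% higher and 35.3% lower. Lcn2, which binds iron-loaded bacterial siderophores, stood at 384 to 1255 TPM in CAC, 20.04 to 71.9 TPM in NCAC and 18.2 to 27.3 TPM in Con. Scara5, a ferritin receptor, rose by 2.14 ± 0.29 (adjusted p = 9.08e-08), at 6.76 ± 4.80 TPM in CAC, 0.759 ± 1.13 TPM in NCAC and 0.534 ± 0.540 TPM in Con. Slc39a14, which takes up iron not bound to transferrin, rose by 1.29 ± 0.23 (adjusted p = 1.15e-05), and the reductase Steap2 by 1.03 ± 0.13 (adjusted p = 2.11e-08). Among iron sensing genes 1 of 8 tested was higher and 3 lower, and 1 and 0 after rescaling (list median -0.27 against -0.21). Epas1, which encodes the hypoxia-inducible factor HIF-2 alpha, rose by 0.52 ± 0.15 (adjusted p = 0.00502; 0.31, adjusted p = 0.12 without the libraries holding pancreatic transcripts). The IRE-binding Aco1 fell by 0.44 ± 0.11 (adjusted p = 0.00143) and the iron-sensing ubiquitin ligase subunit Fbxl5 by 0.30 ± 0.09 (adjusted p = 0.00534). Without the libraries holding pancreatic transcripts the counts at 8 weeks, higher and lower, were 4 and 2 for cytokine input, 1 and 8 for BMP and SMAD input, 4 and 5 for transport and storage and 0 and 5 for sensing. That fit kept 3 of 5 Con livers at 8 weeks. The shares of all tested genes called in it are not given, so whether these counts stand out cannot be told. In NCAC livers 0 genes of these 4 lists were called against Con at 8 weeks (0.181% of all tested genes).

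Markers of other cells were counted in the same livers, where 5.87% of all tested genes were called higher and 35.3% lower as deposited. Red cell markers had 0 of 7 tested genes higher and 5 lower in CAC against Con at 8 weeks (2 lower after rescaling), with sums of 58.96, 437 and 16087 TPM (lowest, median, highest) in CAC, against 651, 3420 and 4096 TPM in NCAC and 1383, 1975 and 4732 TPM in Con. Kupffer cell markers, which mark the macrophages that recycle iron from red cells, had 0 of 13 higher and 6 lower (4 lower after rescaling). Their sums were 204, 388 and 755 TPM in CAC, 311, 398 and 470 TPM in NCAC and 561, 600 and 765 TPM in Con. Hepatocyte markers had 2 of 12 higher and 1 lower, with medians of 159654 TPM in CAC, 147144 TPM in NCAC and 156653 TPM in Con. Of 10 sinusoidal endothelial markers 4 were higher and 1 was lower. The part of these cells in the results for ferritin, Slc40a1 and Bmp6 was not tested. Without the 9 libraries holding pancreatic transcripts, all 6 genes called in CAC against Con at 8 weeks were still called.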

How the data were processed

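Liver RNA was extracted with Trizol and sequenced from stranded mRNA libraries, per the labels' protocols. The authors deposited 1 table of TPM values per gene over 62 libraries, with the genome build mm10 per the submitters' processing notes. Which aligner and quantifier were run is not given in the sources used here. How reads shared by similar genes were divided is unknown. All columns were matched to labelled samples by title, leaving 0 other columns.

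The 12160 of 47643 genes that reached 1 TPM in 5 or more libraries were fitted as log2(TPM + 1) with limma 3.58.1 in R 4.3.3, with 1 mean for each of 12 groups and a trended empirical Bayes spread shared by all libraries, and Benjamini-Hochberg adjustment within each of 16 comparisons. The code was tested on simulated data. The labels call the libraries biological replicates, and p-values measure the spread between them. Levels, ratios, sequences and figures were computed with Python 3.11.15, pandas 2.3.3, NumPy 2.4.6, Biopython 1.88 and matplotlib 3.10.9. Transcripts were those of GENCODE M21 and promoters those of RefSeq.

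The 10 genes and the gene lists were chosen with earlier results of these data known. From each pathway list the text names the 4 genes with the smallest p in CAC against Con at 8 weeks and any called against the direction of the rest. For each of the 10 genes it names the 2 with the highest Pearson r over group means. Some genes that these rules pick are not reported here. The alternatives tried were other pseudocounts, filters, scalings and moderation, a replicate block, clock covariates, separate fits by week, a minimum fold of 2, and leaving out each library or those with pancreatic or muscle transcripts. Leaving out replicate 3 of CAC at 8 weeks together with median-of-ratios rescaling was chosen after seeing the data.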

Additional observations from a re-analysis of the deposited data

Results flagged for a closer look

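Within groups, 9 of 120 sets of values (10 genes in 12 groups) held a library far from the others, where chance gives about 1 in 20, or 6. In CAC at 8 weeks, replicate 3 stood apart for Hamp (8.49 TPM, low) and Fth1 (4265 TPM, high). For Hamp2 the libraries that stood apart were replicate 5 of NCAC at 2 weeks (0.189 TPM), replicate 2 of NCAC at 8 weeks (0.187 TPM) and replicate 4 of Con at 6 weeks (listed at 0). Ftl1 was low in replicate 3 of NCAC at 6 weeks (4171 TPM). Among Con livers, Tfrc was high in replicate 5 at 2 weeks (16.96 TPM), Trf was high in replicate 1 at 8 weeks (11284 TPM), and Fth1 was low in replicate 1 at 2 weeks (3299 TPM). What set these libraries apart was not tested.

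The difference between CAC and Con changed over the weeks, by limma's test of a linear trend, for 4 genes. Per 2 weeks the change in log2(TPM + 1) was 0.24 for Trf, 0.38 for Cp, 0.53 for Steap4 and -0.37 for Ftl1. That of Trf was not called after quantile normalization (0.16, adjusted p = 0.0622).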

How the results depend on the processing

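Over the alternatives, no difference of the 10 genes that was called changed sign. Of the values, 2014 stayed on the same side of the threshold, 15 gained a call and 11 lost one. With 1 library left out at a time the counts were 9910, 6 and 4. These counts include comparisons with no call and left-out libraries outside the groups compared, so many values could hardly change and the totals do not measure stability. The 4 losses were all of Steap4 in CAC against Con at 4 weeks. A minimum of 2-fold left 0 of 2 calls in CAC against Con at 4 weeks, 1 of 4 at 6 weeks and 2 of 6 at 8 weeks. It left 1 of 2, 1 of 4 and 2 of 4 against NCAC at those weeks. In the trend of CAC minus Con it left 0 of 4, but there it asked for a 2-fold change per 2 weeks, a stricter limit. For CAC against Con at 4 weeks, the replicate block gave 1 call, the separate fit gave 1, and leaving out 1 library gave 1 to 2. For CAC against NCAC at 4 weeks, 1 call was left without the libraries holding pancreatic transcripts, 1 without those holding pancreatic or muscle transcripts, and 0 in the separate fit. At 2 weeks that comparison gave 1 call with 2 clock covariates and 1 in the separate fit, for Tfrc. For the step from 6 to 8 weeks in CAC minus Con, leaving out 1 library gave 0 to 2 calls. The shares of all tested genes called at a minimum of 2-fold, or under the other settings of this paragraph, are not given. Whether these counts stand out from all genes cannot be told.

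Median-of-ratios rescaling took the call of Fth1 in CAC against Con at 8 weeks, and the cause was not tested. At 8 weeks against NCAC the differences of Fth1 (-0.26 as deposited, 0.05 rescaled) and Tfrc (-0.14 and 0.14) had opposite signs under the 2 scalings. Cp against NCAC at 4 weeks was called without replicate 2 of NCAC (0.66, adjusted p = 0.0123). The trend of Tfr2 was called under rescaling, quantile normalization and clock covariates, and without replicate 3 of CAC (adjusted p = 0.0453) or replicate 1 of Con (adjusted p = 0.0169) at 2 weeks. The clock covariates left its size at 0.09 and altered only its error. They cannot show whether the arms differed in time of collection. Replicate numbers did not pair the samples: of 60 pairs with the same number in a week 10 had deviations correlated above 0.1, with a range of -0.37 to 0.36. The block, which in effect drops replicates 6 and 7 of CAC, took the call of Steap4 in CAC against Con at 4 weeks (adjusted p = 0.0559). TPM hold no depth, so counting error of low genes such as Bmp6 cannot be given.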

Other observations

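The summed level of 10 neutrophil markers at 8 weeks ran from 58.7 to 154 TPM in CAC, from 12.97 to 18.3 TPM in NCAC and from 11.03 to 33.2 TPM in Con, with 2 of 4 tested markers higher in CAC against Con and 0 lower. Few genes make up most of this sum. Over all libraries Prtn3 reached 115 TPM, S100a9 50.5 TPM and S100a8 23.7 TPM, whereas Ly6g reached 0.481 TPM and Mpo 0.155 TPM. B and plasma cell markers had 0 of 8 tested genes higher and 8 lower in the same comparison, beside 35.3% of all tested genes lower. Without the libraries holding pancreatic transcripts 4 were lower, and the share of all tested genes in that fit is not given.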
